A study of Mus musculus with 29 samples.

Results

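Liver tumours of mice on an alcohol-containing diet were set against tumours of mice on the same kind of diet without alcohol, in libraries labelled IL17RA-/-. The comparison holds 7 of the 29 RNA sequencing libraries of the series and the 12852 of 22187 genes that reached 1 CPM (counts scaled to a fixed library total) in at least 3 of those 7. The 4 alcohol tumours carry the treatment label HFD_alcohol and replicate numbers 4 to 7. The 3 HFD tumours carry the label HFD and replicate numbers 4 to 6. Mice of both groups were C57BL/6, carried the same genotype label, and had been injected intraperitoneally with 25 mg/kg of the liver carcinogen diethylnitrosamine (DEN) at 2 weeks of age before 18 weeks of feeding. The series text speaks of ethanol in a liquid diet and of pair feeding, while the labels of the individual libraries read HFD_alcohol and HFD, and the groups follow those labels. The labels do not say how the receptor gene was inactivated, whether 1 animal gave more than 1 tumour, or which libraries come from separate animals, so the p-values below measure the spread between libraries.

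Interleukin-17 receptor A, encoded by Il17ra, is the receptor subunit shared by IL-17A and several related cytokines. Hepatocytes are zoned along the liver lobule: those next to the central vein receive Wnt signals and express glutamine synthetase, cytochromes of drug metabolism and the ethanol-oxidizing cytochrome CYP2E1. Ethanol is oxidized mainly by alcohol dehydrogenase and CYP2E1, and the acetaldehyde formed by mitochondrial aldehyde dehydrogenase. CYP2E1 also turns DEN into its DNA-alkylating form, and mouse liver tumours can keep or lose the pericentral programme.

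Il17ra (chromosome 6, 120463247 to 120487559, GRCm38) was read in every library. It was at 48.4, 55.8, 42.4 and 55.1 CPM in alcohol tumours, against 60.8, 62.9 and 54.4 CPM in HFD tumours. The groups overlapped, and the difference in mean log2(CPM + 1) was -0.24 (two-sided exact permutation test, p = 0.171; the smallest p that the 35 assignments allow is 0.0286). All 7 values lay at or above 42.4 CPM, whereas tumours labelled WT ran from 32.3 to 33.8 CPM on alcohol and from 22.9 to 48.5 CPM on HFD. A lower level under the IL17RA-/- label was therefore not seen, and a gene-level total does not resolve a deletion of some exons. The genotype is given throughout as labelled.

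The 4 alcohol libraries had a recovered depth of 6080387, 6196651, 8024010 and 3213696 counts, against 7216176, 5376565 and 4893837 counts in the HFD libraries, and 3 counts corresponded to between 0.374 and 0.934 CPM. Alcohol replicate 7 was the shallowest of the 7. Pairs of alcohol libraries correlated at 0.956 to 0.968 on the log2(CPM + 1) scale, alcohol with HFD libraries at 0.952 to 0.974, and pairs of HFD libraries at 0.969 to 0.974, so the ranges overlapped. On the first principal component, with 29.8% of the variance, alcohol replicate 7 stood apart at -44.9 and the next library was HFD replicate 5 at -13.5. Hepatocyte markers (8 of 8 genes, Alb, Ttr and Apoa1 among them) summed to 132197 to 163775 CPM in alcohol tumours and 141118 to 175426 CPM in HFD tumours.

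**Figure D1:**
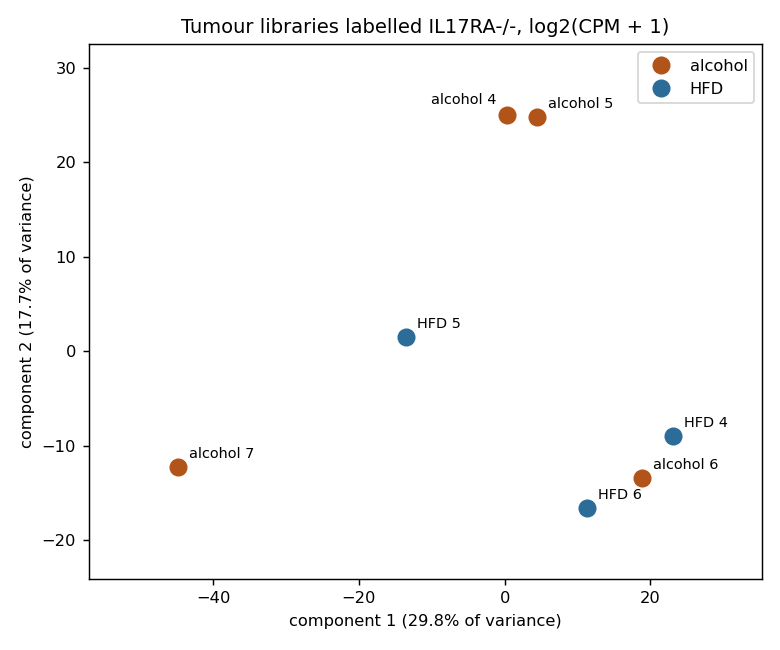
The 7 tumour libraries labelled IL17RA-/- on the first 2 principal components of log2(CPM + 1) over the tested genes; each point is 1 library, coloured by treatment and marked with its replicate number. Alcohol replicate 7 lies at -44.9 on component 1, the other alcohol libraries from 0.38 to 18.9, and the HFD libraries from -13.5 to 23.2.

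No gene passed the test. Limma was fitted to log2(CPM + 1) of the 13 tumour libraries, so its standard errors and p-values include the spread of tumours labelled WT. Adjusted over the 12852 genes, it called 0 genes higher (0%) and 0 genes lower (0%) in alcohol tumours, and the smallest adjusted p was 0.9999. At an unadjusted p under 0.05 it gave 283 genes (2.2%), fewer than the 643 expected if no gene differed; 172 of them (1.34%) were higher and 111 (0.864%) lower in alcohol tumours. Limma-voom on the counts recovered from the CPM steps also called 0 genes, with 246 at an unadjusted p under 0.05. The fit to the 7 libraries alone called 0 as well, and 625 genes had such a p. Of all tested genes 49.3% had a positive log2 fold change (alcohol over HFD), the median was 0.00 (-0.004), the quartiles were -0.16 and 0.14, and the median standard error was 0.24. The values that follow are differences in these libraries and are not calls.

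Some genes had no overlap between the treatments. In 476 genes (3.7%) every alcohol library lay above every HFD library, and in 359 genes (2.79%) every alcohol library lay below. The log2 fold change of these was at least 1 in 16 of the higher and at most -1 in 13 of the lower genes. With 4 against 3 libraries, 1 of the 35 possible assignments puts every alcohol library above every HFD library, a share of 0.0286. The same share holds for the other direction, and the 3.7% and 2.79% are to be read beside it. The 10 genes with the smallest unadjusted p in each direction, without overlap and with a higher mean of at least 5 CPM, are described next.

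The gene ranked first was Cyp2d40, a cytochrome of the 2D family. It was at 12.8, 14.0, 16.5 and 16.8 CPM in alcohol tumours, against 10.1, 8.37 and 7.97 CPM in HFD tumours. As the selection required, all alcohol libraries were above all HFD libraries, and the log2 fold change was 0.71 ± 0.16 (SE). Cyp1a2, the pericentral cytochrome that metabolizes caffeine and aromatic amines, was at 57.1, 236, 95.3 and 131 CPM in alcohol tumours, against 19.1, 36.6 and 14.1 CPM in HFD tumours. Its mean was 5.57 times that of HFD tumours (log2 fold change 2.35 ± 0.64), and alcohol replicate 5 was highest. Cyp2c37, a cytochrome of the 2C family that oxidizes fatty acids and drugs, was at 33.7, 32.6, 13.4 and 70.9 CPM in alcohol tumours, against 3.88, 9.68 and 4.36 CPM in HFD tumours, a ratio of means of 6.30 and a log2 fold change of 2.34 ± 0.70. The Cyp2c genes are close paralogs, and reads shared between them may have been split by the authors' estimation.

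The upstream sequences of these cytochromes are shown because Cyp1a2 and Cyp2c37 had the largest fold changes of the 10 higher genes and Cyp2e1 oxidizes ethanol. Each is the 250 bases before the RefSeq start of the gene in GRCm38.p6, 5′ to 3′ on the gene's strand, and capitals mark the TCF/LEF core CTTTGA, through which Wnt signals act, and the TATA box letters TATAAA, on either strand.
Cyp1a2, chr9:57683656-57683905, minus strand: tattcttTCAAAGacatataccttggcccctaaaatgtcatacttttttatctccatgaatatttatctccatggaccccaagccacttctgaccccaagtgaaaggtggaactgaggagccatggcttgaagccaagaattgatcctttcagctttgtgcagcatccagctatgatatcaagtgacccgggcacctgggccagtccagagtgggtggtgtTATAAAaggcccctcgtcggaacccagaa
Cyp2c37, chr19:39992174-39992423, plus strand: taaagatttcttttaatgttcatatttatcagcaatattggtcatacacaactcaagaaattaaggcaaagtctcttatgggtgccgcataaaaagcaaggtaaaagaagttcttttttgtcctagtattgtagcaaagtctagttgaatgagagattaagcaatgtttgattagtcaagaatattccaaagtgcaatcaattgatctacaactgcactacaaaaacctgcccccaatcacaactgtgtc
Cyp2e1, chr7:140763569-140763818, plus strand: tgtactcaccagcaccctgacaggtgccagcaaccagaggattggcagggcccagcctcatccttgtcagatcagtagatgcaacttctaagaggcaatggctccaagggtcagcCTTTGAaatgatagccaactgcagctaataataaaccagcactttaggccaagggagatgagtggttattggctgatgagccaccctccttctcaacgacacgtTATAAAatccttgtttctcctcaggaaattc
CTTTGA or its reverse complement TCAAAG was found in the Cyp1a2 and Cyp2e1 windows, and in 13.8% of all 32851 RefSeq windows of this length. TATAAA or TTTATA was found in the same pair of windows, 29 bases (position -29) before the start in Cyp1a2 and 31 (position -31) in Cyp2e1, and in 12.4% of all windows. GTTAAT, an HNF1 site core, and GCGTG, the core of the xenobiotic response element, were searched on both strands and were not found in these 3 windows; they occur in 6.43% and 28.2% of all windows. The motifs do not overlap each other here, and these matches describe letters only.

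Among the other higher genes, Mbl2, the mannose-binding lectin of the complement system, was at 181, 145, 139 and 238 CPM in alcohol tumours, against 37.1, 131 and 34.7 CPM in HFD tumours (log2 fold change 1.61 ± 0.50). HFD replicate 5 lay just under the lowest alcohol library. Manf, a secreted protein of the endoplasmic reticulum stress response, was at 115, 84.4, 133 and 125 CPM in alcohol tumours, against 74.6, 54.7 and 65.4 CPM in HFD tumours (0.80 ± 0.24). Cyb5a, the cytochrome b5 that passes electrons to cytochromes and desaturases, averaged 392 ± 32.6 CPM in alcohol tumours (SD, n = 4) and 283 ± 20.9 CPM in HFD tumours (SD, n = 3). The remaining genes were Cops9, a subunit of the COP9 signalosome, Rnf130, a ubiquitin ligase, Ppp2cb, a catalytic subunit of phosphatase 2A, and Cmc2, a mitochondrial protein; their log2 fold changes were 0.59, 0.44, 0.41 and 0.70.

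In the other direction, Zpr1, a zinc finger protein, was at 49.3, 57.3, 34.4 and 43.3 CPM in alcohol tumours, against 115, 70.7 and 66.4 CPM in HFD tumours (log2 fold change -0.83 ± 0.25). Ctsl, the lysosomal protease cathepsin L, was at 336, 354, 319 and 304 CPM in alcohol tumours, against 539, 524 and 399 CPM in HFD tumours (-0.56 ± 0.18). For Ctsl the alcohol libraries were close together, and the HFD libraries spread more widely above them. H2-K1, a classical MHC class I heavy chain, averaged 909 ± 80.9 CPM in alcohol tumours (SD, n = 4) and 1245 ± 123 CPM in HFD tumours (SD, n = 3), with a log2 fold change of -0.45 ± 0.15. Fry, a scaffold protein, was at 12.3, 6.94, 12.5 and 17.1 CPM in alcohol tumours, against 33.5, 23.2 and 32.3 CPM in HFD tumours (-1.26 ± 0.40). Atp8a2, a phospholipid flippase, was at 0.822, 0.646, 0.623 and 1.56 CPM in alcohol tumours, against 10.3, 2.98 and 2.25 CPM in HFD tumours (-1.49 ± 0.47), so its alcohol values rest on few counts. Zbtb16, a glucocorticoid-responsive transcription factor, was at 53.5, 71.0, 82.6 and 83.1 CPM in alcohol tumours, against 137, 97.3 and 132 CPM in HFD tumours (-0.75 ± 0.26). Sfi1, Cnppd1, Sorbs3 and Tnks1bp1 had log2 fold changes of -0.88, -0.49, -0.76 and -0.45.

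**Figure D2:**
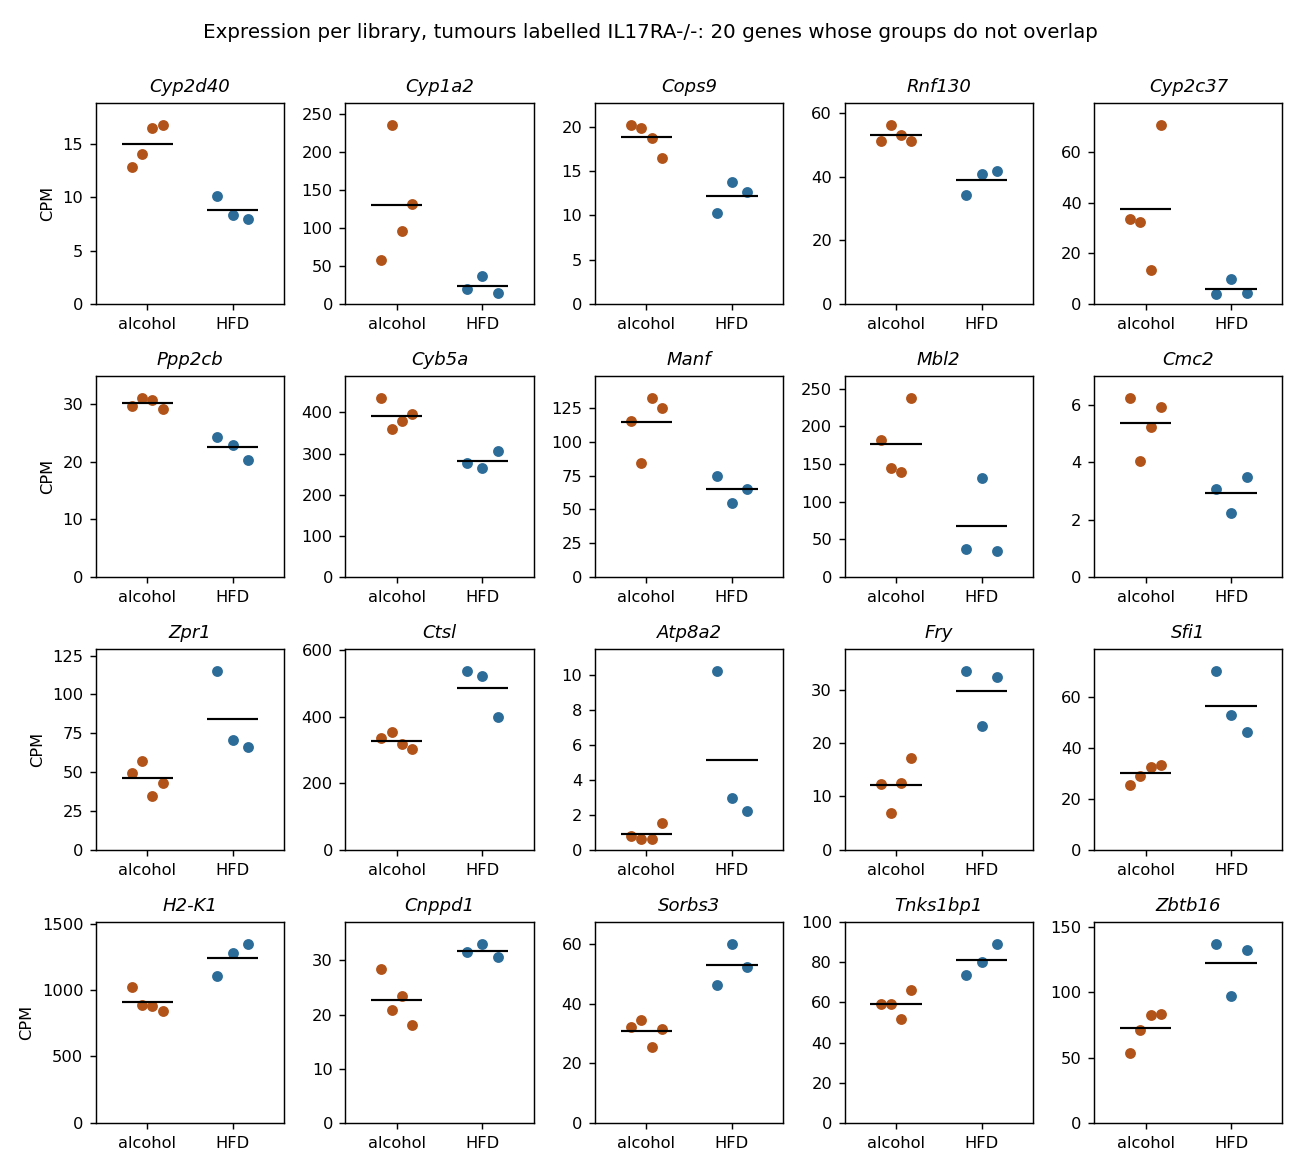
CPM (y axis, from 0) of the 10 higher and the 10 lower genes with the smallest unadjusted p in their direction, among those without overlap and with a higher mean of at least 5 CPM, in alcohol (left) and HFD (right) tumours labelled IL17RA-/-; points are libraries and the line is the group mean. The points of Cyp1a2 run from 57.1 to 236 CPM on alcohol and from 14.1 to 36.6 CPM on HFD, and none of these genes passed the adjusted test.

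Nearly every pericentral gene had a higher mean in the alcohol tumours. Of 26 tested members of 28 listed, 25 had a positive log2 fold change and the median was 0.81, beside 49.3% positive and a median of -0.004 over all tested genes. None was called, 6 had an unadjusted p under 0.05 in the higher direction (1.34% of all genes) and Cyp1a2 and Aldh3a2 were among those without overlap (3.7% of all genes). The mean log2(CPM + 1) of the list was 4.58, 6.30, 4.68 and 5.57 in alcohol tumours, against 4.18, 4.93 and 3.89 in HFD tumours. HFD replicate 5 lay above alcohol replicates 4 and 6, so the libraries overlapped. In bulk tissue, fewer cells of a type and less RNA per cell cannot be told apart, here and in the lists below.

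Cyp2e1 was at 547, 1055, 347 and 1070 CPM in alcohol tumours, against 168, 446 and 124 CPM in HFD tumours. Its log2 fold change was 1.69 ± 0.59, and only HFD replicate 5 reached into the alcohol range. The next genes were chosen after their values were seen. Glul, glutamine synthetase, was at 132, 1879, 174 and 430 CPM in alcohol tumours, against 99.5, 176 and 59.9 CPM in HFD tumours. Alcohol replicate 5 was highest, and it was also highest for the glutamate transporter Slc1a2, at 534 CPM, with the other 6 libraries between 4.90 and 124 CPM. The feedback inhibitors of Wnt signalling Axin2, Nkd1 and Notum and the receptor gene Lgr5 were at 20.3, 32.1, 21.9 and 24.2 CPM in alcohol replicate 5, and Axin2 was between 0.822 and 4.05 CPM in the other 6 libraries. Alcohol replicate 7 was highest for Cyp7a1, the first enzyme of bile acid synthesis, at 75.9 CPM; the other alcohol libraries had 32.7, 13.4 and 10.3 CPM, and the HFD libraries 7.34, 15.3 and 4.50 CPM. The median of the list was 0.45 without alcohol replicate 5, with 22 of 26 positive, and between 0.63 and 1.07 without any other 1 of the 7 libraries.

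**Figure D3:**
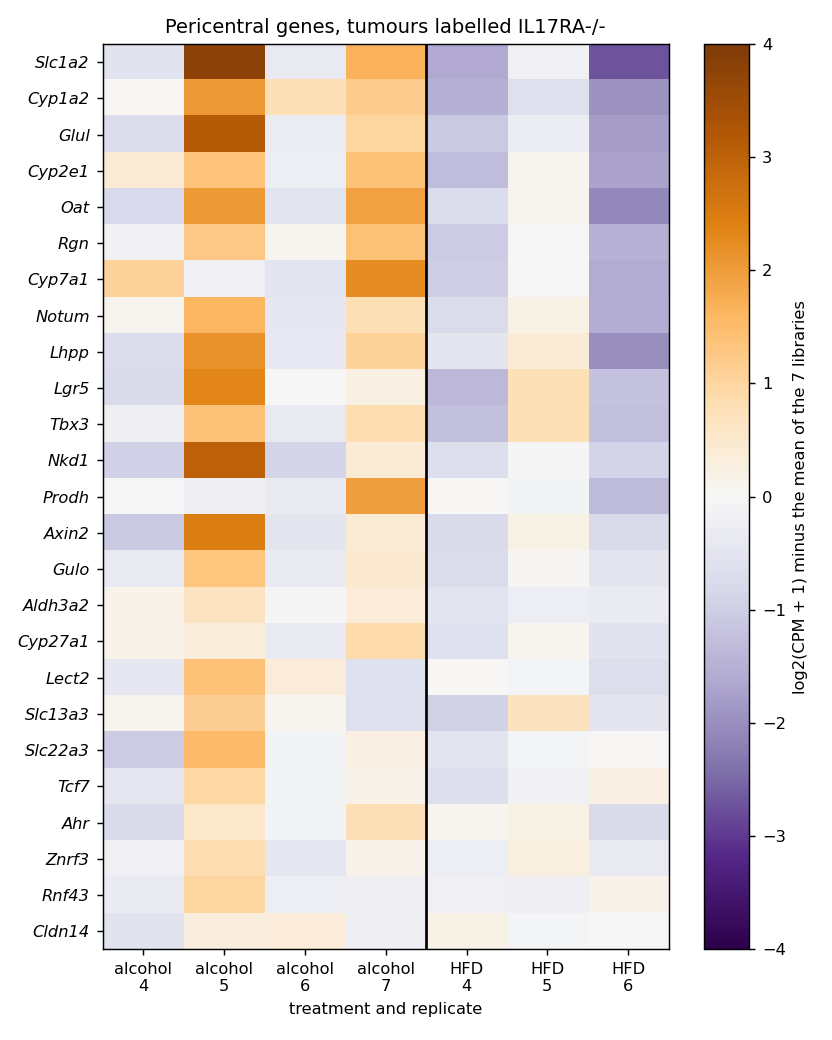
Pericentral genes, 25 of the 26 tested (rows, ordered by log2 fold change) in the 7 tumour libraries labelled IL17RA-/-, alcohol left of the line and HFD right; colour is log2(CPM + 1) minus the gene's mean over the 7 libraries. Alcohol replicate 5 is highest in 18 rows and alcohol replicate 7 in 6, and HFD replicate 5 is above HFD replicates 4 and 6 in 19 rows.

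The enzymes of ethanol and aldehyde oxidation had a median log2 fold change of 0.33, with 12 of 15 positive. Without HFD replicate 4 the median was 0.14, and without alcohol replicate 7, which was highest for 10 of the 15, it was 0.21, each with 8 of 14 positive; without HFD replicates 5 and 6 in turn it was 0.20 and 0.51. Adh1, the main hepatic alcohol dehydrogenase, was at 1057, 1122, 912 and 1152 CPM in alcohol tumours, against 706, 708 and 1191 CPM in HFD tumours. Aldh2, which clears acetaldehyde in mitochondria, averaged 737 ± 58.5 CPM in alcohol tumours (SD, n = 4) and 655 ± 96.6 CPM in HFD tumours (SD, n = 3), and Cat, catalase, averaged 1047 ± 226 CPM and 804 ± 150 CPM. Both genes and Adh1 overlapped between treatments, with log2 fold changes of 0.33 ± 0.21 for Adh1, 0.18 ± 0.15 for Aldh2 and 0.37 ± 0.28 for Cat. Aldh3a2, a fatty aldehyde dehydrogenase, was the 1 member of 15 that was higher without overlap (3.7% of all genes), at 248, 348, 217 and 287 CPM in alcohol tumours against 158, 191 and 180 CPM in HFD tumours.

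Of 35 tested cytochromes of drug metabolism 25 were positive, with a median of 0.45, and 4 were higher without overlap (3.7% of all genes), namely Cyp1a2, Cyp2c37, Cyp2c38 and Cyp4a10, and 1, Cyp3a44, was lower (2.79% of all genes). Cyp1a2 is also a member of the pericentral list, so these lists share genes. Cyp4a10, a fatty acid hydroxylase induced by PPAR-alpha, was at 10.3, 11.9, 14.6 and 34.3 CPM in alcohol tumours, against 5.57, 4.29 and 4.47 CPM in HFD tumours. The list mean of log2(CPM + 1) was 5.24, 5.35, 5.31 and 6.09 in alcohol tumours, against 4.92, 5.09 and 4.67 in HFD tumours, so its 4 alcohol values lay above the 3 HFD values. Without alcohol replicate 7 the median was 0.12, with 20 of 34 positive. That replicate also had the largest sums of stellate cell and fibrosis markers (30 of 30 tested; 1442 to 2723 CPM in alcohol tumours, 1619 to 2488 CPM in HFD tumours) and of adipocyte markers (3 of 8 tested; 126 to 496 CPM in alcohol tumours, 105 to 147 CPM in HFD tumours; Lep and Plin1 at 0 in all 7). Of the 3 tested adipocyte genes, 1 had a positive log2 fold change (median -0.26). Alcohol replicate 7 was highest for 1 of these 3 and had Adipoq at 0 CPM. Its sum of 13 pancreatic acinar markers was 77.0 CPM, with 14.97 to 35.9 CPM in the other alcohol tumours and 21.4 to 28.4 CPM in HFD tumours. Pnlip, pancreatic lipase, was at 6.22 CPM in that replicate and at 0.19 CPM or less in the other 6 libraries, and Cela2a, a pancreatic elastase, at 6.85 CPM and at 0.56 CPM or less. The part of these markers in the values of that replicate was not tested.

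Conjugating enzymes had 29 of 34 members positive (median 0.45), with 8 higher without overlap (3.7% of all genes) and 1, Sult1c2, a sulfotransferase, lower (2.79% of all genes). Gsta3, a glutathione transferase, was at 253, 244, 306 and 359 CPM in alcohol tumours, against 125, 117 and 218 CPM in HFD tumours (log2 fold change 0.96 ± 0.33). Ugt3a2, a UDP-glycosyltransferase, was at 49.0, 40.2, 84.0 and 74.1 CPM in alcohol tumours, against 23.4, 37.6 and 29.6 CPM in HFD tumours (0.97 ± 0.36). Without any 1 library the median stayed between 0.33 and 0.54. The NRF2 antioxidant and pentose phosphate genes had 25 of 29 members positive (median 0.40), and 5 were higher without overlap (3.7% of all genes). Alcohol replicate 6 was highest for 13 of the 29, and without it the median was 0.22. Of these, Ephx1, microsomal epoxide hydrolase, was at 386, 299, 372 and 300 CPM in alcohol tumours, against 253, 239 and 276 CPM in HFD tumours. Nqo1, the quinone reductase, ran from 3.55 to 82.6 CPM in alcohol tumours and from 25.1 to 43.5 CPM in HFD tumours, and did not share the direction of the list (-0.11 ± 0.85).

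The bile acid list stood at a median of 0.51, and 21 of 25 genes were positive; without alcohol replicate 7 and HFD replicate 4 in turn the median was 0.32, with 20 positive each time. Akr1c6, a hydroxysteroid dehydrogenase, was at 195, 426, 229 and 325 CPM in alcohol tumours, against 66.4, 156 and 78.7 CPM in HFD tumours, without overlap (log2 fold change 1.57 ± 0.51). Slco1b2, the hepatic organic anion uptake transporter, was at 151, 544, 136 and 417 CPM in alcohol tumours, against 59.9, 167 and 62.9 CPM in HFD tumours. Both genes were highest in alcohol replicates 5 and 7, and HFD replicate 5 was the highest HFD library for both. Abcb11, the bile salt export pump, overlapped, at 223 to 450 CPM in alcohol tumours and 161 to 317 CPM in HFD tumours.

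Carboxylesterases and major urinary proteins were positive in 23 of 23 tested members of 31 listed, with a median of 0.96, and 2 members, Ces1c and Mup21, had no overlap (3.7% of all genes). Ces1c, a secreted plasma esterase, was at 705, 579, 598 and 605 CPM in alcohol tumours, against 382, 329 and 475 CPM in HFD tumours. Mup20, the male pheromone protein darcin, was at 4988.5, 2097, 2428 and 5287 CPM in alcohol tumours, against 887, 3300.1 and 1424 CPM in HFD tumours. HFD replicate 5 exceeded alcohol replicates 5 and 6 for Mup20, and alcohol replicate 7 was the highest of the 7 libraries for 22 of the 23 members. Without it the median was 0.67, with 20 of 22 tested members positive. Mup genes are near-identical copies, and their separate values are uncertain. Male-biased liver genes, which include several Mup and Cyp4a12 genes, had 20 of 21 members positive (median 0.88), whereas female-biased genes had 6 of 16 members positive (median -0.13). Alcohol replicate 7 was highest for 16 of the 21 male-biased genes, and without it their median was 0.55. C9, a male-biased component of the membrane attack complex, was at 114, 103, 119 and 117 CPM in alcohol tumours, against 62.1, 67.0 and 46.0 CPM in HFD tumours, and the alcohol values were tightly grouped.

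**Figure D4:**
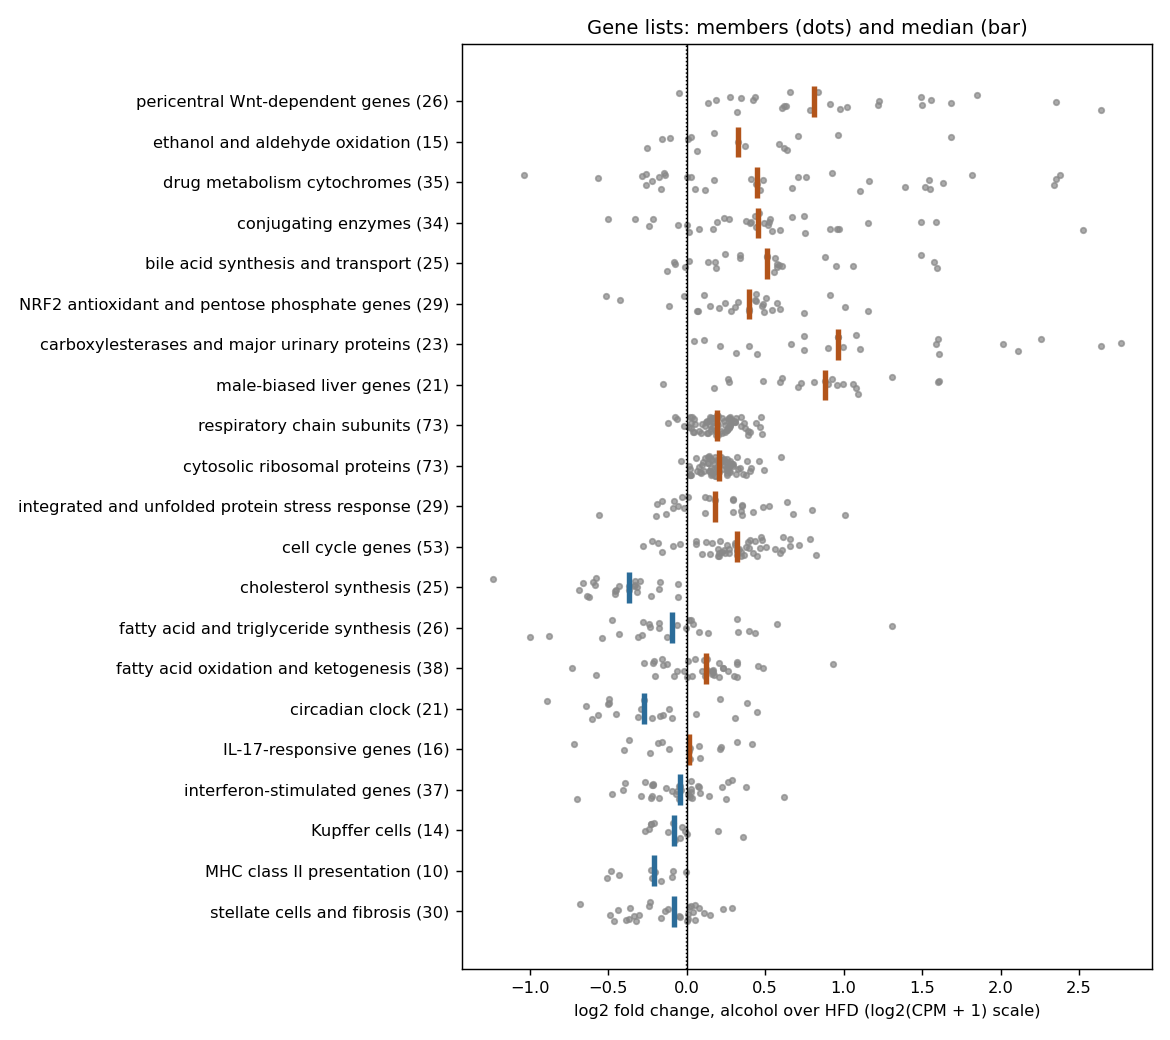
Log2 fold change (x axis, alcohol over HFD, tumours labelled IL17RA-/-) of every tested member of 21 gene lists; grey dots are genes, the coloured bar is the list median and the number in brackets the members tested. The pericentral and carboxylesterase lists have medians of 0.81 and 0.96, cholesterol synthesis one of -0.37, and no dot passed the adjusted test.

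Subunits of the respiratory chain and cytosolic ribosomal proteins had small positive log2 fold changes in nearly every member. The respiratory chain list had 69 of 73 members positive (median 0.20), and 23 members were higher without overlap (3.7% of all genes). Ndufa3, a subunit of complex I, was at 28.8, 23.9, 22.3 and 24.9 CPM in alcohol tumours, against 17.6, 16.9 and 18.0 CPM in HFD tumours. Ribosomal proteins had 72 of 73 members positive (median 0.20), and 13 members were higher without overlap (3.7% of all genes). Rpl35 was at 73.8, 89.9, 66.5 and 63.5 CPM in alcohol tumours, against 39.6, 46.4 and 58.8 CPM in HFD tumours (log2 fold change 0.60 ± 0.20). Ribosomal protein genes have many processed pseudogenes, so single values are uncertain. For the respiratory chain the list means were 5.99, 5.93, 5.79 and 5.96 in alcohol tumours, against 5.70, 5.74 and 5.71 in HFD tumours, without overlap. The ribosomal list means were 7.33, 7.33, 7.24 and 6.97 in alcohol tumours, against 6.91, 7.02 and 7.09 in HFD tumours. These overlapped, since alcohol replicate 7 lay below HFD replicates 5 and 6, and the ribosomal median was 0.28 without alcohol replicate 7.

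Of the stress response genes of the endoplasmic reticulum and the integrated stress response, 19 of 29 were positive (median 0.18), and 5 were higher without overlap (3.7% of all genes): Manf, Pdia4, Edem1, Dnajc3 and Canx, which act in folding and quality control of secreted proteins. Alcohol replicate 6 was highest for 16 of the 29; the median was 0.082 without it and 0.33 without alcohol replicate 5. Pdia4, a disulfide isomerase, was at 452, 337, 478 and 471 CPM in alcohol tumours, against 309, 264 and 327 CPM in HFD tumours. The transcription factors of the response were not among them: Atf4 had a log2 fold change of -0.05 ± 0.17, Ddit3 of -0.19 ± 0.31 and Xbp1 of -0.13 ± 0.13. Cell cycle genes were positive in 47 of 53, with a median of 0.32, and 5 were higher without overlap (3.7% of all genes). Mcm5, a subunit of the replicative helicase, averaged 11.4 CPM in alcohol tumours and 6.70 CPM in HFD tumours (log2 fold change 0.66 ± 0.37). Without alcohol replicate 7 the cell cycle median was 0.11, with 38 of 53 positive, and without HFD replicate 6 it was 0.16, with 40 of 53. The p53 targets had 22 of 27 members positive (median 0.18, or 0.10 without alcohol replicate 6); Perp, a desmosomal p53 target, averaged 108 ± 12.3 CPM in alcohol tumours (SD, n = 4) and 77.6 ± 10.1 CPM in HFD tumours (SD, n = 3).

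Cholesterol synthesis genes had negative log2 fold changes throughout: 0 of 25 members were positive and the median was -0.37. Sqle, squalene epoxidase, was at 9.37, 52.3, 65.1 and 68.1 CPM in alcohol tumours, against 114, 44.5 and 156 CPM in HFD tumours (log2 fold change -1.23 ± 0.65). HFD replicate 5 lay within the alcohol range for this gene. The list means were 5.08, 5.71, 5.52 and 6.38 in alcohol tumours, against 6.14, 5.52 and 6.64 in HFD tumours, and the median was -0.65 without HFD replicate 5 and -0.15 without HFD replicate 6, with 8 of 25 positive. Fatty acid and triglyceride synthesis had 11 of 26 members positive (median -0.09, or 0.091 without HFD replicate 6). Fasn, fatty acid synthase, was at 410, 555, 524 and 698 CPM in alcohol tumours, against 687, 362 and 896 CPM in HFD tumours, and Scd1, stearoyl-CoA desaturase, averaged 8092 ± 1304 CPM in alcohol tumours (SD, n = 4) and 5488 ± 1382 CPM in HFD tumours (SD, n = 3). Plin2, which coats lipid droplets, averaged 622 ± 92.4 CPM and 733 ± 105 CPM. For fatty acid oxidation the median was 0.12, and 26 of 38 genes were positive.

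The circadian clock list had a median of -0.27, and 5 of its 21 genes were positive. HFD replicate 6 was highest for 12 of the 21, and without it the median was -0.065, with 7 positive. Per1, a clock repressor that also responds to glucocorticoids, was at 42.9, 55.7, 43.6 and 67.2 CPM in alcohol tumours, against 79.1, 75.1 and 75.8 CPM in HFD tumours. It was the 1 clock gene of 21 that was lower without overlap (2.79% of all genes). The time of collection is not given in the labels, and its part in these values was not tested. Hepatocyte identity genes had 10 of 32 members positive (median -0.11, or -0.025 without HFD replicate 6), and oncofetal tumour markers 10 of 20 (median -0.01), or 16 of 20 (median 0.25) without alcohol replicate 4. Afp, alpha-fetoprotein, ran from 105 to 559 CPM in alcohol tumours and from 151 to 539 CPM in HFD tumours, and Gpc3, glypican 3, from 143 to 232 CPM and from 215 to 342 CPM. Igf2 stayed under the expression filter, with 0.329, 0.646, 0.623 and 5.29 CPM in alcohol tumours and 0.277, 0 and 1.23 CPM in HFD tumours.

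For IL-17-responsive genes the median was 0.02, 9 of 16 tested were positive, and 13 more were below the filter. Nfkbiz, which encodes the IkB-zeta needed for IL-17 target genes, averaged 19.2 ± 4.35 CPM in alcohol tumours (SD, n = 4) and 24.9 ± 4.65 CPM in HFD tumours (SD, n = 3). Lcn2, lipocalin 2, ran from 358 to 1765 CPM in alcohol tumours and from 730.3 to 938 CPM in HFD tumours. The IL-17 receptors and adaptors had 3 of 8 members positive (median -0.07), interferon-stimulated genes -0.04 with 17 of 37, NF-kB feedback genes -0.06 with 5 of 19 and acute phase proteins -0.05 with 11 of 29. The signs of these medians changed with single libraries left out: that of interferon-stimulated genes was -0.34 without HFD replicate 4, with 4 of 37 positive, and 0.10 without HFD replicate 6, with 26 of 37. The IL-17-responsive median ranged from -0.15 to 0.096 with 1 library left out. Among cell type markers, all of 10 tested MHC class II genes were negative, with a median of -0.21. The median ran from -0.45 without HFD replicate 4 to -0.0095 without alcohol replicate 5, with 3 of 10 positive (-0.058 without HFD replicate 5 and -0.091 without HFD replicate 6). All 10 genes overlapped between treatments. H2-Aa had means of 84.1 ± 24.1 CPM in alcohol tumours (SD, n = 4) and 97.1 ± 26.3 CPM in HFD tumours (SD, n = 3). The median of Kupffer cell markers was -0.08 (3 of 14 positive), with macrophage markers -0.11 with 5 of 16, endothelial markers -0.14 with 4 of 22 and T and NK cell markers -0.08 with 5 of 11. The Kupffer cell sum was 565 to 695 CPM in alcohol tumours and 623 to 720 CPM in HFD tumours. Neutrophil, pancreatic acinar and muscle lists had 2 tested members each. The neutrophil sum (13 genes) was 7.73, 4.03, 5.86 and 8.40 CPM in alcohol tumours, against 8.45, 12.8 and 11.2 CPM in HFD tumours, and Camp and Ly6g were at 0 in all 7 libraries. The sums of 8.40 and 8.45 CPM were closer than the 0.311 CPM of 1 count in alcohol replicate 7, so the groups were not clearly separate. Prss1 of the acinar list and Myh1 and Myh4 of the muscle list were also at 0 in all 7.

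The difference between treatments was then set against that in tumours labelled WT, which share no library with it. In the test of the difference between the differences, limma called 0 of 12852 genes (0%), with a smallest adjusted p of 0.219, 1723 genes (13.4%) whose unadjusted p was under 0.05, and 0 calls from limma-voom, with 1731. Prdx6, the peroxiredoxin with phospholipase activity, had the smallest p: its log2 fold change was 0.22 ± 0.15 in tumours labelled IL17RA-/- and -1.19 in tumours labelled WT, a difference of 1.41 ± 0.22 (limma, adjusted p = 0.219). In Cyb5a the difference was 1.10 ± 0.21 and in Cyp2d40 1.31 ± 0.24, each with a limma-adjusted p of 0.27. Over all genes the median of the difference was 0.17, and 0.01 after median-ratio rescaling, so list values are to be read against that shift.

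HFD WT replicate 4 stood apart from the other tumours in that its 10 most abundant genes held 16.6% of counts, where the other tumours had 21.8% to 32.2%, and leaving it out was chosen after seeing the data. Without it limma again called 0 genes, the smallest adjusted p was 0.409, and 1288 genes had an unadjusted p under 0.05. The pericentral list had a median of 0.81 and 25 of 26 positive members in tumours labelled IL17RA-/-, and a median of -0.80 and 2 of 26 in tumours labelled WT, where 32% of all genes were positive; without that library the WT median was -0.36, with 5 of 26. Cyp1a2 had a log2 fold change of 2.35 in the first and -1.04 in the second, or -0.09 without that library. The NRF2 list stood at 0.40 and at -0.87 (-0.61 without that library), ribosomal proteins at 0.20 and at -0.44 (-0.36 without it), and cell cycle genes at 0.32 and at -0.32 (-0.13 without it). The signs of these medians differed between the labels. Over all genes the median in tumours labelled WT was -0.16, and -0.094 without that library, so the cell cycle value of -0.13 lay near the latter. The medians of IL-17-responsive genes were 0.02 and -0.55 (-0.89 without that library), and those of MHC class II genes -0.21 and -1.48 (-1.77 without it). Macrophage markers stood at -0.11 and -1.14 (-1.16 without it), and T and NK cell markers at -0.08 and -1.34 (-1.75 without it). Kupffer cell markers stood at -0.08 and -0.76 (-0.66 without it), and interferon-stimulated genes at -0.04 and -0.71 (-0.50 without it). Negative medians under the WT label were therefore not particular to IL-17-responsive genes. No gene passed the test of the difference, and the directions rest on the genotype as labelled.

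In non-tumour liver labelled IL17RA-/-, 5 alcohol libraries were set against 3 HFD libraries. The interaction of treatment and tissue had 0 calls by limma (0%), a smallest adjusted p of 0.994, 603 genes (4.69%) whose unadjusted p was under 0.05, and 0 calls by limma-voom, with 552. The pericentral list had a median of 0.81 in tumours and -0.07 in non-tumour liver, and carboxylesterases and major urinary proteins of 0.96 and 0.06. Cholesterol synthesis stood at -0.37 in tumours and at 0.76 in non-tumour liver, with 0 and 25 of 25 members positive, beside 49.3% of all genes in tumours and 60% in non-tumour liver. Male-biased genes were positive in 20 of 21 members in tumours (median 0.88) and in 19 in non-tumour liver (median 0.55). Tumour and non-tumour libraries may come from the same animals, which the labels do not say.

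**Figure D5:**
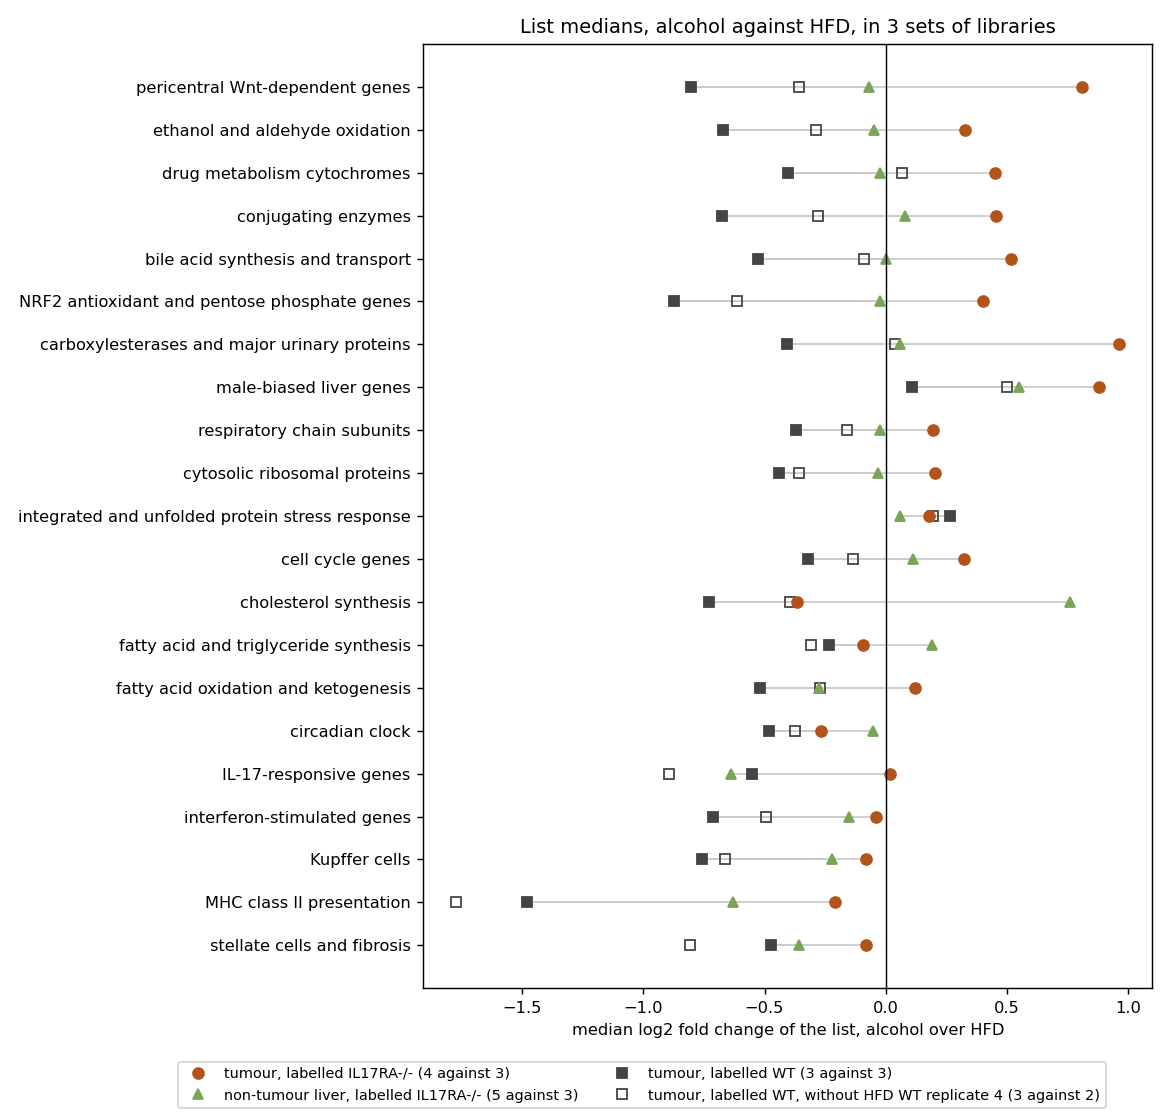
Median log2 fold change (x axis, alcohol over HFD) of 21 gene lists in tumours labelled IL17RA-/- (circles), tumours labelled WT with HFD WT replicate 4 (filled squares) and without it (open squares), and non-tumour liver labelled IL17RA-/- (triangles). The pericentral list lies at 0.81, -0.80, -0.36 and -0.07, and no gene passed the tests of these differences.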

How the data were processed

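PolyA RNA of tumour and non-tumour liver was sequenced from strand-specific TruSeq libraries after PureLink extraction, per the labels' protocols. The submitters' processing notes list the aligner STAR 2.5.1a, the quantifier RSEM 1.3.0 and the build GRCm38. The deposited table holds CPM per gene for 29 libraries; that its steps are those of estimated rather than whole counts follows from the values, since within 0.002 between 83.4% and 86.2% of recovered values were whole, so no count test was used as the main one. Titles gave groups and replicate numbers, and symbols came from GENCODE M21. Depth was recovered from the CPM steps; floors of 3 counts cover counting error only. In R 4.3.3, limma 3.58.1 was fitted to log2(CPM + 1) of the 13 tumour libraries in 4 groups, with a variance trend and Benjamini-Hochberg adjustment over the 12852 genes that reached 1 CPM in 3 or more of the 7 compared libraries; a gene was called at an adjusted p under 0.05, two-sided. Fold changes on this scale understate the change of low genes. The interaction with tissue used all 29 libraries. Lists are described by counts and medians, with no test. Some genes, such as Cyp1a2 and Aldh3a2, belong to several lists, so the lists are not independent of each other. Replicate libraries differed by more than sampling noise. The members, the lists and the genes fixed for naming were chosen with earlier results of these data known. Named genes were Il17ra; called genes without overlap, of which there were none, filled to 10 in each direction by the smallest unadjusted p at a mean of 5 CPM or more; 2 members of each pathway list by the smallest p; and a fixed set of liver genes, of which H19 was not analysed here. Alternatives changed the pseudocount, filter, scaling, libraries in the fit, tool (limma-voom) and replicates. RefSeq gave upstream sequences for 73 of 103 named genes. Some genes of the lists are not reported here by name.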

Additional observations from a re-analysis of the deposited data

Results flagged for a closer look

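Among the 4 alcohol tumours, 4 of 103 named genes and 4 of 48 list means had 1 library whose gap to the nearest other exceeded the critical share of the range (Dixon's ratio for 4 libraries). Chance flags about 1 in 20 such groups, and groups of 3, the HFD tumours, were not examined. Alcohol replicate 7 was the far library for Cth, cystathionine gamma-lyase, at 103 CPM (58.6 to 60.4 in the others), and for the imprinted gene Peg3 at 76.2 CPM (4.11 to 13.7). It was also far for the list means, in log2(CPM + 1), of drug metabolism cytochromes at 6.09 (5.24 to 5.35), urea cycle and amino acid enzymes at 7.40 (6.74 to 6.82), NF-kB inhibitors and feedback genes at 4.35 (3.97 to 4.03), and B and plasma cell markers at 3.35 (2.30 in each of the others). Alcohol replicate 5 was the far library for Scarb1, the HDL receptor, at 297 CPM (209 to 212), and alcohol replicate 4 for Slc22a27, an organic anion transporter, at 15.2 CPM (1.13 to 3.24). Alcohol replicate 7 was also the shallowest library, at 3213696 counts, and the part of depth in its values was not tested.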

How the results depend on the processing

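All 22 alternatives of the comparison gave 0 called genes in either direction, and so did those of both interactions. The number at an unadjusted p under 0.05, 283 as reported, was 601 with all 29 libraries in the fit, 523 with no filter, 625 with the 7 libraries alone, 454 without HFD WT replicate 4, 459 without that library and alcohol replicate 5, and ranged from 168 (without HFD replicate 6) to 454 over the 13 libraries left out in turn. The replicate block gave 349 such genes and 0 calls, and for the interaction with genotype label 1614 and 0 calls. Same-numbered libraries had correlations of deviations of 0.017, 0.045 and 0.106, and other-numbered libraries from -0.25 to 0.24. A pairing by number was not seen, and so few values cannot decide it. Of 103 named genes 98 kept their sign under every alternative. With 1 library left out, the log2 fold changes of the other 5 ranged from -0.55 to 0.11 for Fasn, from -0.83 to 0.12 for Afp, from -1.13 to 0.21 for Hamp, from -0.80 to 0.090 for Igfbp2 and from -1.04 to 0.54 for Lars2. Afp reached 0.08 without HFD replicate 6 and 0.12 without alcohol replicate 4, and Lars2 0.21 without alcohol replicate 6 and 0.54 without HFD replicate 5. With 1 library left out, list medians ranged from 0.45 to 1.07 for pericentral genes, from 0.67 to 1.27 for carboxylesterases and major urinary proteins and from -0.32 to 0.13 for the growth hormone axis. The 4 list medians that moved by more than the SD between replicate libraries ranged from -0.018 (without HFD replicate 4) to 0.20 for fatty acid oxidation, from -0.080 to 0.11 (without HFD replicate 6) for lipid droplet genes, from -0.072 (without HFD replicate 4) to 0.042 for apolipoproteins and from -0.46 (without HFD replicate 4) to 0.028 for T and NK cell markers; the cause was not tested. The comparison rests on 4 against 3 libraries with a median standard error of 0.24 on the log2 scale, and 3 counts were worth up to 0.934 CPM in the shallowest library.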

Other observations

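Lars2, a mitochondrial leucyl-tRNA synthetase, was at 1418, 185, 105 and 343 CPM in alcohol tumours, against 142, 1265 and 323 CPM in HFD tumours, so 1 library of each treatment stood far above the rest. Tumours labelled WT ran from 18.0 to 35.7 CPM on alcohol and from 16.1 to 36.5 CPM on HFD. The list of mitochondrial tRNA synthetases was positive in 11 of 19 members (median log2 fold change 0.043). Hamp, which encodes the iron hormone hepcidin, was at 33.1, 90.4, 4.61 and 19.6 CPM in alcohol tumours, against 58.3, 26.6 and 24.1 CPM in HFD tumours, and the groups overlapped. Glycolysis and gluconeogenesis was positive in 10 of 35 members (median -0.14) and the hypoxia-responsive list in 5 of 21 (median -0.071). Heat shock proteins were positive in 10 of 17 members (median 0.10), immediate early genes in 12 of 25 (median -0.015), and complement and coagulation in 18 of 37 (median -0.0080). Genes that neighbour Il17ra on chromosome 6 were positive in 8 of 12 (median 0.062). None of these members was called by limma.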
